A study of Homo sapiens with 4 samples.

Results

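The genes described here encode the proteasome, its activators and the chaperones that assemble it. They were chosen by name: every gene whose symbol in the array annotation is PSM, a letter from A to G and digits, together with ADRM1, SEM1 and POMP. Of 51 such symbols in 7 structural classes, 45 had a probe set that named them alone, out of 19775 genes in all. One probe set, the brightest over the 4 arrays, stood for each gene, and 44 of the 45 reached the brightness minimum. The remaining one, PSMA8, a core subunit known from the testis, averaged an intensity of 5.19 on the knockdown-labelled arrays and 5.95 on the control arrays, below the minimum of 14.6, and was not tested. PSMA6 and PSME2 lay only on probe sets that named several genes, and so were not tested. Those probe sets had log2 changes, knockdown-labelled minus control, of -0.16 and -0.51 for PSMA6 and -0.21 for PSME2. PSMB11, PSMC5, PSMD7 and PSMD13 were not analysed here.

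RNA came from MCF10A, a human mammary epithelial cell line that does not form tumours, grown in DFCI-1 medium and harvested without further treatment. The 2 arrays labelled double knockdown held cells with short hairpin RNAs against CBL and CBLB, ligases that attach ubiquitin to activated tyrosine kinase receptors, and the 2 control arrays held cells with a control hairpin. All cells thus carried a hairpin, and the labels do not say which vector delivered it, whether the cells were a clone or a pool, or whether replicate arrays stand for independent cultures. Any p-value here reflects how far these 4 arrays differ, and that may be technical variation only. In such bulk RNA, fewer cells of a kind cannot be told apart from less RNA per cell.

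CBL read 31.1 and 29.0 on the arrays labelled double knockdown, against 126 and 84.4 on the control arrays (log2 change -1.37 ± 0.15 SE, limma adjusted p = 0.00139). CBLB went against the label, with 94.8 and 99.5 against 64.3 and 70.0 on the control arrays (log2 change 0.45 ± 0.09 SE, adjusted p = 0.0148). The arrays are called knockdown-labelled here for that reason, and each direction is theirs against the control arrays. Of the 6 epithelial markers measured, all were above the brightness minimum, with a summed intensity of 35870 and 33490 on the knockdown-labelled arrays and 49120 and 47540 on the control arrays. KRT14 and KRT5 were the 2 of them that passed the test, and both were lower on the knockdown-labelled arrays. Leukocyte markers summed to 115 and 117 against 116 and 121, and of the 8 measured 4 lay below the minimum, the pan-leukocyte gene PTPRC among them. Fibroblast markers summed to 249.1 and 247.3 on the knockdown-labelled arrays, against 322 and 327 on the control arrays, with 4 of 7 below the minimum. Their member DCN read 54.9 and 77.9 against 128 and 127 on the control arrays, and fell (log2 change -0.81, adjusted p = 0.00707). The part of these lower keratin and DCN levels in the results was not tested.

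The proteasome degrades proteins that carry ubiquitin chains. Its barrel, the 20S core, is built of alpha rings that gate the entrance and beta rings that hold the proteolytic sites. A cap, the 19S regulatory particle, sits at either end: its base holds the ATPases that unfold the substrate and the large scaffold and receptor subunits, and its lid holds the enzyme that cuts the ubiquitin chain off. Dedicated chaperones build core and base and then leave, alternative caps can replace the 19S particle, and cells exposed to interferon gamma exchange the catalytic beta subunits for immune forms that favour peptides for MHC class I. Transcription of the subunit genes is known to rise together when proteasome activity is impaired, through the factor NFE2L1.

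Of the 44 proteasome genes tested, 33 had a log2 change below 0 on the knockdown-labelled arrays, against 52.1% of all genes, and the subunits of the 19S cap held 8 of the 11 genes called lower. At an adjusted p under 0.05, 11 of the 44 genes tested (25%) fell, 1 rose and 32 did not pass the test. Over all 12960 genes tested, 6.6% were called lower and 9.41% higher. Both knockdown-labelled arrays lay below both control arrays for 28 of the 44 genes (63.6%), against 29.4% of all genes, and above both for 4, against 28.1% of all genes. The median log2 change of the 44 was -0.19, against -0.01 for all genes tested, and the changes ran from -0.62 for PSMD3 to 0.58 for PSMB9. Proteasome genes are bright, so the 4500 genes at least as bright as the dimmest of the 44 were also taken, a comparison chosen after the data were seen. Of these, 10.1% were called lower and 12.1% higher, and the median log2 change was -0.02. Both knockdown-labelled arrays lay below both control arrays for 35.6% of them.

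The falls were small, and the number of calls rested on both knockdown-labelled arrays. PSMD3 fell by at least 1.5-fold on the log2(intensity + 16) scale, the 1 gene that did. The constant decides that count, since the ratio of mean intensities was also above it for PSMC3, at 1.51-fold. Without knockdown-labelled replicate 1, 2 genes were called lower (PSMD3 and PSMD14), and without replicate 2 also 2 (PSMC3 and PSMC4). Over all genes, those counts were 195 and 158. The control pair, which then supplies the residual spread, differed by a median of 0.11 on the log2 scale over the 44 genes, against 0.07 for the knockdown-labelled pair. Array 2 read higher than array 1 of its group for 35 of the 44 in the knockdown-labelled pair and for 37 in the control pair.

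**Figure D1:**
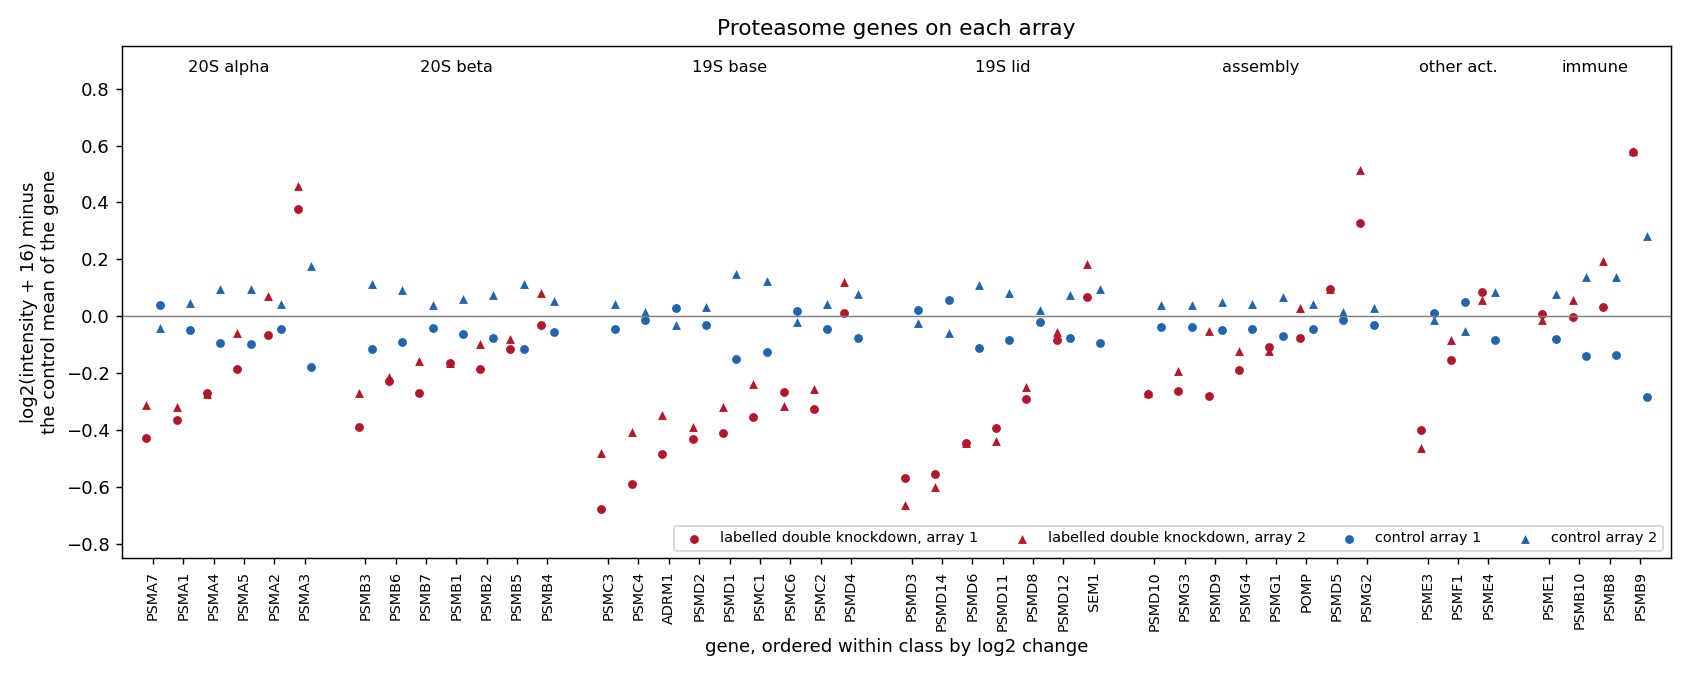
Each of the 44 genes on each array, as log2(intensity + 16) minus the gene's control mean, with the knockdown-labelled arrays (red) left of the control arrays (blue) and circles and triangles for arrays 1 and 2. In the 19S base and lid, the red points of 13 of 16 genes lie below both blue points. This was so for 29.4% of all genes tested and 35.6% of those as bright as the dimmest of the 44. PSMA3, PSMD5, PSMG2 and PSMB9 have both red points above both blue ones, as was found for 28.1% of all genes tested.

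The lid of the 19S cap had the lowest class median, a log2 change of -0.42 over 7 genes. Of these 4 fell (57.1%, against 6.6% of all genes), none rose and 3 did not pass the test. The base had the lower median in 3 of the 15 alternatives: with the mean of probe sets (lid -0.27, base -0.41), without _s_at and _x_at probe sets (-0.36 and -0.41) and without knockdown-labelled replicate 2 (-0.39 and -0.41). PSMD3, a scaffold subunit of the lid, read 158 and 147 on the knockdown-labelled arrays, against 245 and 238 on the control arrays. It fell 1.53-fold (log2 change -0.62 ± 0.09 SE, adjusted p = 0.00413), and the arrays of the groups did not overlap. PSMD14, the metalloprotease that removes the ubiquitin chain before the substrate enters the core, read 1218 and 1178 on the knockdown-labelled arrays, against 1871.5 and 1723 on the control arrays. Its fall of 1.49-fold (log2 change -0.58 ± 0.09 SE, adjusted p = 0.00601) exceeded the difference between arrays of the same group.

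The other called lid genes were also clear of the control arrays. PSMD6, a structural lid subunit, read 1270.5 and 1271 on the knockdown-labelled arrays, against 1604 and 1874 on the control arrays, whose spread was much the wider (1.36-fold lower, adjusted p = 0.0236). This call held in 9 of 15 alternatives, the fewest of the called genes. With the mean of probe sets the log2 change was -0.20 (adjusted p = 0.0994), but that mean includes a probe set averaging 4.38, below the brightness minimum. PSMD11, which links lid and core, read 379.8 and 368 on the knockdown-labelled arrays, against 475 and 535 on the control arrays (1.33-fold lower, adjusted p = 0.0233). Its call held in 10 of 15, and without _s_at and _x_at probe sets the log2 change was -0.27 (adjusted p = 0.0788). Of the remaining lid genes, PSMD8 had 1396 and 1437 against 1684 and 1735 on the control arrays, apart but short of the threshold (log2 change -0.27, adjusted p = 0.0695). PSMD12 and the small acidic subunit SEM1 overlapped between groups, at log2 changes of -0.07 (95% interval -0.28 to 0.14) and 0.13 (-0.11 to 0.36).

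The base had a median log2 change of -0.36 over 9 genes, and 4 fell (44.4%, against 6.6% of all genes) and none rose. Its ATPases form the ring that pulls the substrate in. PSMC3 read 386 and 445 on the knockdown-labelled arrays, against 607 and 646 on the control arrays (1.49-fold lower, log2 change -0.58 ± 0.10 SE, adjusted p = 0.009). PSMC4 read 325 and 371 on the knockdown-labelled arrays, against 491 and 501 on the control arrays (1.41-fold lower, log2 change -0.50 ± 0.10 SE, adjusted p = 0.0133). For both ATPases the knockdown-labelled pair was the wider one, and still lay below the control pair. Both knockdown-labelled arrays were below both control arrays for all 5 ATPase genes tested, against 29.4% of all genes and 35.6% of the 4500 bright ones. The other 3 ATPase genes missed the threshold: PSMC6 (log2 change -0.29, adjusted p = 0.0549), PSMC2 (-0.29, 0.0617) and PSMC1 (-0.30, 0.106).

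The base also carries the receptors for ubiquitin. ADRM1, a receptor that docks the deubiquitinase UCHL5, read 323 and 357 on the knockdown-labelled arrays, against 468 and 448 on the control arrays (1.33-fold lower, adjusted p = 0.0214). PSMD2, a scaffold that binds shuttle factors, read 504 and 520.0 on the knockdown-labelled arrays, against 670.2 and 701 on the control arrays (1.33-fold lower, adjusted p = 0.0174). PSMD1, the other large scaffold, had 759 and 809 against 912 and 1125 on the control arrays and missed the threshold (log2 change -0.36, adjusted p = 0.0694). The receptor PSMD4, the brightest of the base at a mean of 2183, had the highest log2 change of the class. It read 2149 and 2316 on the knockdown-labelled arrays, against 2017 and 2249 on the control arrays, so the groups overlapped. The 95% interval of its log2 change was -0.16 to 0.29.

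The promoters of the 4 genes that fell furthest, and of PSMG2, the gene that rose, are printed to show what letters lie at their starts. Each is 5′ to 3′ on the gene's strand, from 250 bases before to 50 after the RefSeq start (GRCh38.p14), with capitals for TGACNNNGC, the core of the antioxidant response element that NFE2L1 and its relative NFE2L2 bind, and for CCAAT, the box bound by NF-Y, on either strand. PSMD3 lies at chr17:39980557-39980856 (+), PSMD14 at chr2:161308175-161308474 (+), PSMC3 at chr11:47426390-47426689 (-), PSMC4 at chr19:39970915-39971214 (+) and PSMG2, for the first of its 2 starts, at chr18:12658488-12658787 (+).
PSMD3: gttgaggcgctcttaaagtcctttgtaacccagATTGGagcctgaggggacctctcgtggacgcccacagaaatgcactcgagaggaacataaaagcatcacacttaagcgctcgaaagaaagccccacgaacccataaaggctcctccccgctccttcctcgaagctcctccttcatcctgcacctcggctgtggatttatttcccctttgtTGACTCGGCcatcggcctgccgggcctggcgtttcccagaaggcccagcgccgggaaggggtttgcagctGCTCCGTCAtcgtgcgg
PSMD14: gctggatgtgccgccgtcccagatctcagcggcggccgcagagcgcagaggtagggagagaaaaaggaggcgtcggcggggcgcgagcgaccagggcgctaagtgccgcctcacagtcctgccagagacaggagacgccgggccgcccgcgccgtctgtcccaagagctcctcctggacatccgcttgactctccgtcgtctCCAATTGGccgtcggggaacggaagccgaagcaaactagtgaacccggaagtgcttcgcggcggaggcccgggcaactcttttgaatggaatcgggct
PSMC3: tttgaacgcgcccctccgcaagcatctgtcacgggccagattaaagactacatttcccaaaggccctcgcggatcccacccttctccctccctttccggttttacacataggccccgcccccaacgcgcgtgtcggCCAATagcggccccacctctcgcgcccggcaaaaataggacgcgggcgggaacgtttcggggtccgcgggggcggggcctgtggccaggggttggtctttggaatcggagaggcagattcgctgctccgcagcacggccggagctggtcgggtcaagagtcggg
PSMC4: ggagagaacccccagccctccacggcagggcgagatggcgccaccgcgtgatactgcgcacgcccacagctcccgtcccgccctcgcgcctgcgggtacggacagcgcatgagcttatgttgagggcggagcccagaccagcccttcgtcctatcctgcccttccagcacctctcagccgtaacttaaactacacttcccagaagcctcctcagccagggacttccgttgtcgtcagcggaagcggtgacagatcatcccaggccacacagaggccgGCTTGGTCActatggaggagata
PSMG2: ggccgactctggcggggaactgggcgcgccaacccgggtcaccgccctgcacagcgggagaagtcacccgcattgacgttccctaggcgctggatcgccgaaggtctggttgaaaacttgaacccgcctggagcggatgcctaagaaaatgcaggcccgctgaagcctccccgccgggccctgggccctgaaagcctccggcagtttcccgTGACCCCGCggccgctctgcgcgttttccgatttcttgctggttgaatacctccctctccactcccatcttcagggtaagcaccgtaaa
The PSMD3 window holds the response element letters at 2 places, 37 bases before the start and, on the other strand, from base 34 after it, and a CCAAT box on the other strand. In the PSMD14 window the CCAAT letters on both strands overlap, from 48 bases before the start. PSMC3 has 1 CCAAT box, PSMC4 has response element letters on the other strand from base 28 after the start, and PSMG2 has them 39 bases before it. A match is only these letters, not a site at which binding was measured.

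Promoter windows were found for 38 of the 44 genes tested. At least 1 window held TGACNNNGC in 15 of them (39.5%), against 16.1% of all 27305 genes in the table, and CCAAT in 19 (50%), against 39.7%. The windows of proteasome genes had a median GC content of 62%, against 58.7% for all windows, and the part of this in the shares was not tested. TGACNNNGC was found in 3 of the 10 genes called lower that had a window and in 12 of the 28 others, and CCAAT in 6 of the 10 and 13 of the 28.

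In the 20S core, 2 of 13 genes (15.4%) fell and none rose, with a median log2 change of -0.16. Of all genes tested 6.6% were called lower, and 10.1% of those as bright as the dimmest of the 44. Both were alpha subunits. PSMA7 read 2191 and 2375 on the knockdown-labelled arrays, against 3038 and 2870.4 on the control arrays (1.29-fold lower, log2 change -0.37 ± 0.09 SE, adjusted p = 0.0309). PSMA1 read 2912 and 3010.3 on the knockdown-labelled arrays, against 3632 and 3878 on the control arrays (1.27-fold lower, log2 change -0.34 ± 0.09 SE, adjusted p = 0.0359). Each of these calls held in 10 of 14 alternatives. PSMA3 lay on the other side: it read 2270.0 and 2402 on the knockdown-labelled arrays, against 1541 and 1974 on the control arrays, with no overlap (log2 change 0.42 ± 0.12 SE). Its adjusted p of 0.0581 missed the threshold, and the size depended on which control array was kept. Without control replicate 1 the log2 change was 0.24, and without control replicate 2 it was 0.59. With the mean of probe sets it was 0.12 (adjusted p = 0.337), but that mean includes probe sets averaging 11.8 and 9.45, below the brightness minimum. PSMA3 was called higher with quantile normalization, cyclic loess, the stricter minimum, the intensity trend, the replicate block and without _s_at and _x_at probe sets. It was not called with either other constant, no brightness minimum or median centring. The alpha genes PSMA4 (log2 change -0.27, adjusted p = 0.097) and PSMA5 (-0.12, 0.475) were not called.

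None of the 7 beta genes was called by limma. At an unadjusted p under 0.05, 3 of them were lower, against 14.5% of all genes and 929 of the 4500 bright ones. Both knockdown-labelled arrays lay below both control arrays for 5 of the 7, against 29.4% of all genes and 35.6% of the 4500 bright ones. PSMB3, a structural beta subunit with the smallest p of the class, read 1612 and 1751 on the knockdown-labelled arrays, against 1952 and 2291 on the control arrays (log2 change -0.33 ± 0.11 SE, adjusted p = 0.0743). The 3 proteolytic subunits are the enzymes of the complex. PSMB6, which carries the caspase-like site, read 1554 and 1568 on the knockdown-labelled arrays, against 1709 and 1941 on the control arrays (log2 change -0.22, 95% interval -0.44 to -0.00, adjusted p = 0.163). PSMB7, with the trypsin-like site, read 2474 and 2675 on the knockdown-labelled arrays, against 2901 and 3065 on the control arrays (log2 change -0.21, -0.42 to -0.00, adjusted p = 0.157). PSMB5, with the chymotrypsin-like site that bortezomib blocks, read 1979 and 2032 on the knockdown-labelled arrays, against 1981 and 2323 on the control arrays, and a difference was not detectable with these arrays (log2 change -0.10, -0.33 to 0.14). PSMB4 was the brightest of the 44 and the highest of the class, at a log2 change of 0.03.

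None of the 4 immune genes was called by limma. At an unadjusted p under 0.05, 1 was higher and none lower, where 2078 of all 12960 genes were higher and 1880 lower. PSMB9, the immune counterpart of PSMB6, read 609 and 609.5 on the knockdown-labelled arrays, against 328 and 493 on the control arrays. The groups did not overlap, but the control arrays lay far apart, and the log2 change of 0.58 ± 0.17 SE, the highest of the 44, had an adjusted p of 0.0525. Without control replicate 1 the log2 change was 0.30, and without control replicate 2 it was 0.86. PSMB9 was called higher with median centring, cyclic loess, the stricter minimum, the intensity trend, the replicate block and without _s_at and _x_at probe sets. It was not called with either other constant, no brightness minimum, quantile normalization or the mean of probe sets. PSMB8, the counterpart of PSMB5, read 499 and 560.3 on the knockdown-labelled arrays, against 442 and 537 on the control arrays (log2 change 0.11, 95% interval -0.15 to 0.38). PSMB10, the counterpart of PSMB7, read 229 and 239.5 on the knockdown-labelled arrays, against 207 and 254 on the control arrays (log2 change 0.03, -0.23 to 0.28). PSME1, a subunit of the activator cap induced by interferon gamma, had a log2 change of -0.00. In PSMB8, PSMB10 and PSME1 the groups overlapped, and the difference in change between an immune subunit and its counterpart was not tested.

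**Figure D2:**
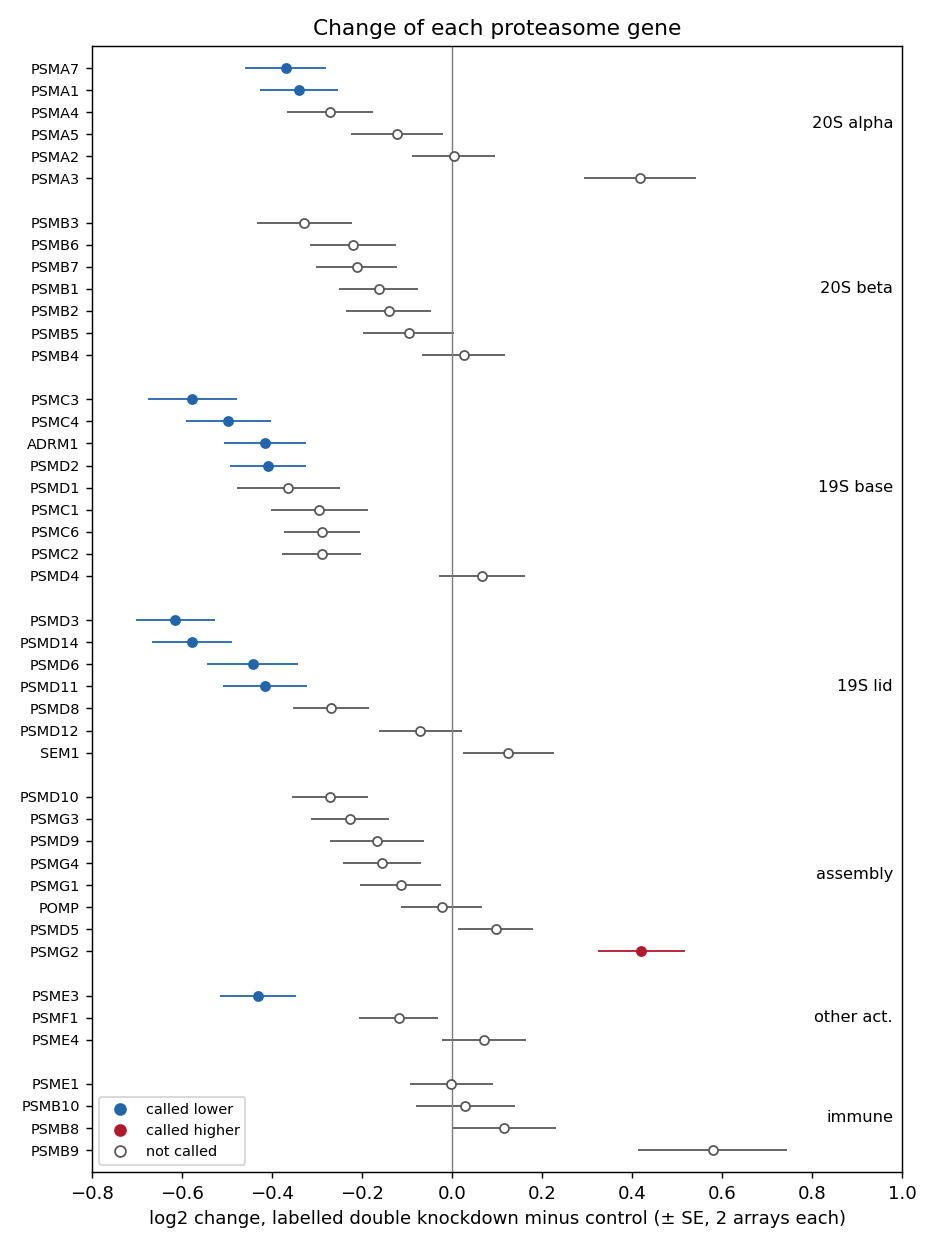
Log2 change of each of the 44 genes, knockdown-labelled minus control arrays, with its moderated SE (2 arrays a group), by class from the 20S alpha ring at the top to the immune forms at the bottom. Filled points passed an adjusted p under 0.05: 8 of the 11 that fell are 19S base or lid genes, and PSMG2 is the 1 that rose.

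Among 8 assembly chaperones none fell and 1 rose, where 6.6% of all genes were called lower and 9.41% higher. Among genes as bright as the dimmest of the 44, 10.1% were called lower and 12.1% higher. PSMG2, which pairs with PSMG1 to start the alpha ring, read 3465 and 3941 on the knockdown-labelled arrays, against 2699 and 2818 on the control arrays (1.34-fold higher, log2 change 0.42 ± 0.10 SE, adjusted p = 0.025). The call held in 10 of 15 alternatives, and was lost without control replicate 1 (adjusted p = 0.0731), knockdown-labelled replicate 1 (0.0648) or replicate 2 (0.222). Its partner PSMG1 had 786 and 779 against 808 and 889.6 on the control arrays (log2 change -0.11, adjusted p = 0.451), so the members of the pair had changes of opposite sign, though that of PSMG1 did not pass the test. The second pair, PSMG3 and PSMG4, had log2 changes of -0.23 and -0.16, and POMP, which matures the partly built core and was among the brightest at 5300.4 and 5709 against 5417 and 5766, of -0.02. Of the chaperones of the base, PSMD10 had 599.9 and 602 against 709 and 749 on the control arrays (log2 change -0.27, adjusted p = 0.0694), PSMD9 a log2 change of -0.17 and PSMD5 of 0.10, and none was called.

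Of the alternative caps and regulators, PSME3, the cap of nuclear proteasomes, fell. It read 227 and 217 on the knockdown-labelled arrays, against 308 and 302 on the control arrays (1.35-fold lower, log2 change -0.43 ± 0.08 SE, adjusted p = 0.0144). PSME4, another nuclear activator, had 403 and 395 against 357 and 403 on the control arrays (log2 change 0.07, 95% interval -0.15 to 0.29). PSMF1, known as an inhibitor of the core in vitro, had 367 and 386 against 426 and 395 on the control arrays (log2 change -0.12, -0.33 to 0.09).

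The class medians were also taken on single arrays. Relative to the control mean of each gene, base genes had a median of -0.41 and -0.32 on the knockdown-labelled arrays, against -0.04 and 0.04 on the control arrays, and lid genes -0.39 and -0.44, against -0.08 and 0.08. Beta genes had -0.18 and -0.16 against -0.07 and 0.07, and alpha genes -0.23 and -0.17 against -0.07 and 0.07. The immune genes overlapped, with 0.02 and 0.13 against -0.14 and 0.14. Whether the 19S and 20S classes differed in their change was not tested. They also differed in brightness: gene means ran from 196.8 to 2509 in base and lid, and from 1575 to 5695 in the core. Over the 44 genes, mean intensity and log2 change correlated at a Spearman rho of 0.26. The part of brightness in the class medians was not tested.

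**Figure D3:**
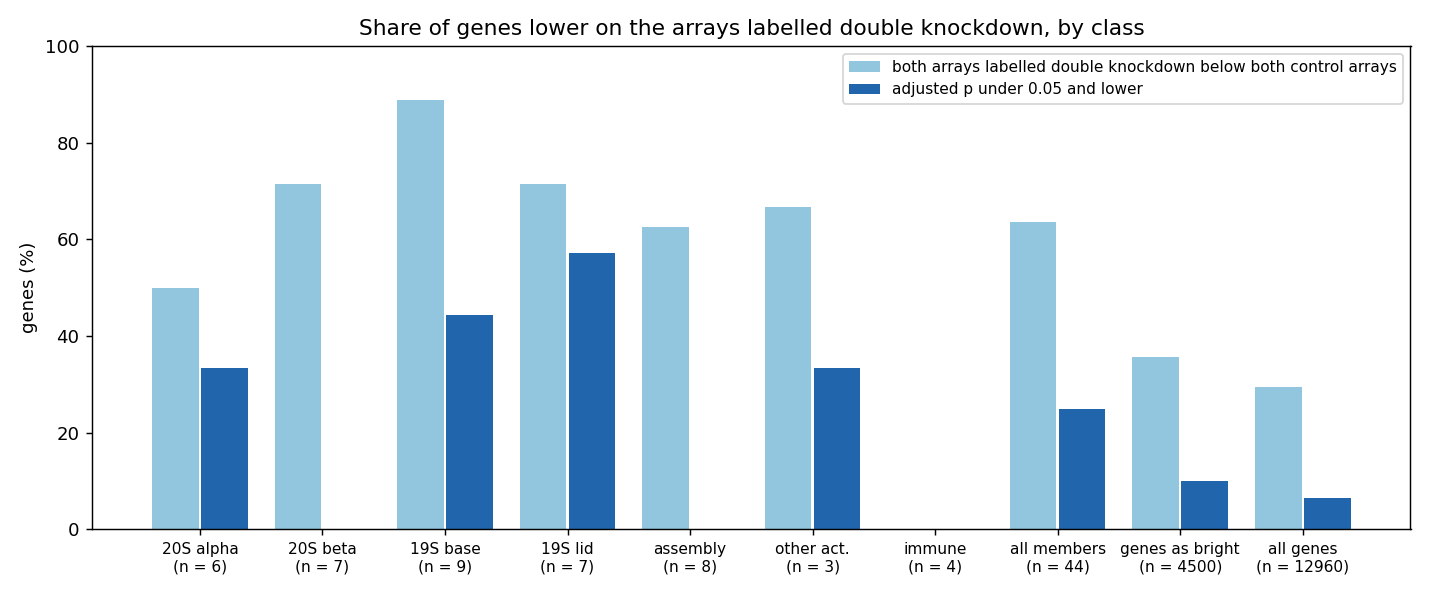
Share of genes in percent, by class and for all genes, with both knockdown-labelled arrays below both control arrays (light bars) and called lower at an adjusted p under 0.05 (dark bars). Lid (57.1%) and base (44.4%) have the highest shares called, against 6.6% of all genes, and no beta, assembly or immune gene is called lower.

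The array carries more than 1 probe set for many of these genes, which gives a second reading from the same RNA. Of 29 further probe sets above the brightness minimum, 23 changed in the same direction as the brightest one. For the called genes this was 7 of 7, and 6 of the 7 had an unadjusted p under 0.05. PSMA1 had log2 changes of -0.39 and -0.43 on its others, PSMA7 of -0.56, and PSME3 of -0.51, -0.48 and -0.38. Some uncalled genes had a second probe set that changed more. PSMC2 had -0.37 and -0.43 (unadjusted p = 0.000738 and 0.000507) beside -0.29 on its brightest, PSMD1 had -0.57 (0.00198) beside -0.36, and PSMA2 -0.42 (0.00399) beside 0.00. PSMA5 and PSMG4 disagreed in sign, at 0.57 and 0.45 on dim probe sets against -0.12 and -0.16 on the bright ones. Of the 12 called genes 5 rest on probe sets ending in _s_at or _x_at, which may pick up more than 1 transcript, so such transcripts cannot be told apart.

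**Figure D4:**
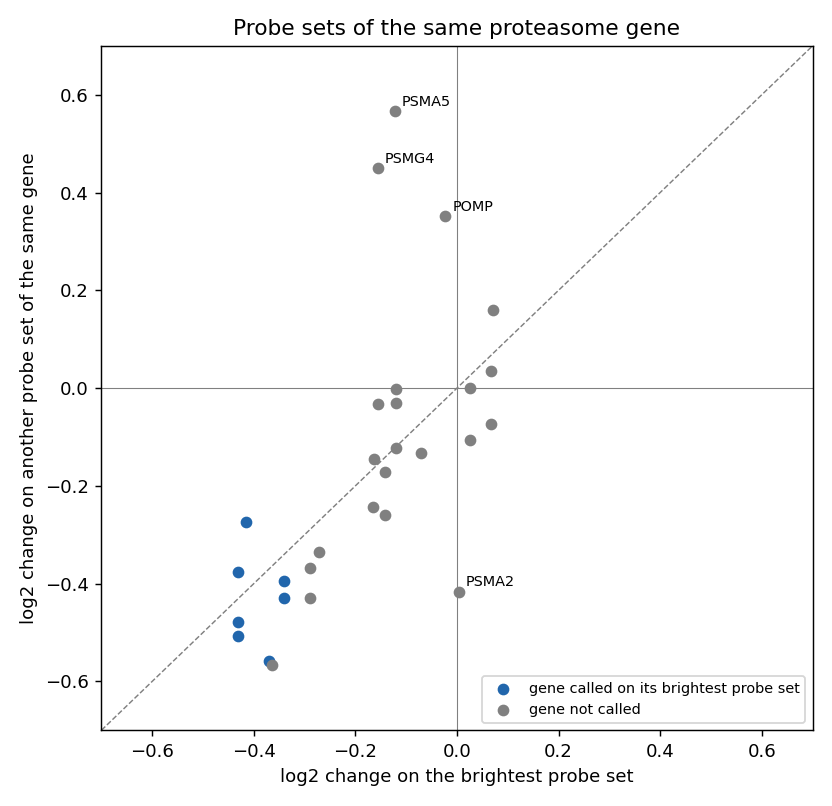
Log2 change (knockdown-labelled minus control) of each further probe set above the brightness minimum against that of the gene's brightest probe set, with the line of equality dashed. The 7 points of called genes (blue) lie in the lower left, and PSMA2, PSMA5, PSMG4 and POMP are the genes whose probe sets differ by more than 0.3.

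Genes that work with the proteasome were called in both directions. Of 22 shuttle factors and proteasome-bound enzymes tested, 5 fell and 1 rose, at a median log2 change of -0.12, where 6.6% of all genes were called lower and 9.41% higher. Without _s_at and _x_at probe sets 14 of the 22 were tested and none was called lower, but PAAF1 and UFD1, below, were not among those 14. UBQLN2, a shuttle factor for ubiquitinated proteins, read 299.9 and 279.9 on the knockdown-labelled arrays, against 440.2 and 389 on the control arrays (log2 change -0.49, adjusted p = 0.0145). PAAF1, which binds the base ATPases during assembly, read 153 and 161 on the knockdown-labelled arrays, against 209 and 224 on the control arrays (-0.43, 0.0168). UCHL5, the deubiquitinase that ADRM1 docks, read 639 and 649 on the knockdown-labelled arrays, against 808 and 826 on the control arrays (-0.34, 0.0327), but without _s_at and _x_at probe sets its log2 change was 0.03. That of UBQLN2 was then -0.12 and that of VCP -0.19, neither called. UFD1 and VCP, partners in the unfoldase that delivers substrates, were the other 2 that fell. UFD1 read 862 and 957 on the knockdown-labelled arrays, against 1270.1 and 1284 on the control arrays (-0.48, 0.0124). VCP read 347 and 367 on the knockdown-labelled arrays, against 431 and 481 on the control arrays (-0.34, 0.0483). None of the 5 was called without knockdown-labelled replicate 1 or replicate 2.

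ZFAND2A, a proteasome-associated protein known to be induced by arsenite and by misfolded protein, had the largest change of the list. It read 534 and 582 on the knockdown-labelled arrays, against 206 and 233 on the control arrays (log2 change 1.29 ± 0.10 SE, adjusted p = 0.00025), and it was called under every one of the 15 alternatives.

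Of 12 factors tested that control the subunit genes, 2 rose and none fell, where 9.41% of all genes were called higher and 6.6% lower. None was called with constant 1, without a brightness minimum, or without knockdown-labelled replicate 1 or replicate 2. NFE2L1 read 453 and 404 on the knockdown-labelled arrays, against 462 and 325 on the control arrays, whose spread covered the other pair (log2 change 0.14, adjusted p = 0.613). NFE2L2 had a log2 change of 0.01. MAFF, a small MAF protein that pairs with both, read 710.3 and 706 on the knockdown-labelled arrays, against 564 and 493 on the control arrays (0.41, adjusted p = 0.0254). NFYB, a subunit of NF-Y, read 174 and 191 on the knockdown-labelled arrays, against 129 and 141 on the control arrays (0.39, adjusted p = 0.0279). IRF1, an interferon-induced factor that drives the immune subunits, read 238 and 251 on the knockdown-labelled arrays, against 181 and 202 on the control arrays, apart but just short of the threshold (0.33, adjusted p = 0.0509).

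Of 12 genes tested of peptide supply to MHC class I, 3 rose and none fell, where 9.41% of all genes were called higher and 6.6% lower. The median log2 change of the list was 0.04. The count called higher was 1 without a brightness minimum, 2 with quantile normalization and 5 with constant 64. CALR, an ER chaperone of class I molecules, read 488 and 470.0 on the knockdown-labelled arrays, against 223 and 198 on the control arrays (log2 change 1.13, adjusted p = 0.000339). TPP2, a cytosolic peptidase that trims proteasome products, read 419.6 and 471 on the knockdown-labelled arrays, against 267 and 321 on the control arrays (0.58, adjusted p = 0.014). PDIA3, an ER disulfide isomerase of the loading complex, read 1592 and 1381 on the knockdown-labelled arrays, against 1153 and 1169 on the control arrays (0.35, adjusted p = 0.0487). The peptide transporter genes TAP1 and TAP2 had log2 changes of 0.00 and -0.02, each with overlapping groups.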

How the data were processed

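Total RNA of 4 MCF10A samples was hybridised to Affymetrix U133 Plus 2.0 arrays, per the series design text. The authors deposited 1 intensity per probe set, taken as linear because of the range of values. Their summarisation and normalization are not given in the sources here. Array medians were 14.5 to 14.7, which is dim, so they cannot show whether brighter genes are offset between arrays. The 95th percentiles were 646 and 664 on the knockdown-labelled arrays, and 648 and 659 on the control arrays. Of 54675 probe sets 41091 named 1 gene in the platform annotation, 1801 several, 11721 none, and 62 were controls. Symbols were updated through the RefSeq gene table (GRCh38.p14), which matched 41037. The brightest probe set stood for each gene, and a gene was tested if its mean was at least 14.6, the median over probe sets (12960 genes). Values were log2(intensity + 16), so folds understate changes of dim genes. limma (version 3.58.1, R 4.3.3; a two-sided moderated test by lmFit and eBayes, all 4 arrays, no covariate) gave log2 changes, moderated SE and p-values adjusted by Benjamini-Hochberg over all genes tested. Single probe sets were tested likewise without the brightness minimum. The test was tried on simulated data. Promoters are those of RefSeq, and protein sequences were not used here. The number of arrays limits the precision.

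Members, classes, lists and tests were chosen with earlier results of these data known. Array values are given for every called gene, the catalytic subunits and their immune counterparts, and the smallest p of each class, and for further members and list genes chosen after their values were seen. Alternatives were the constant, the brightness minimum, 3 scalings, an intensity trend, the title's sample number as a block, and each array left out. Further alternatives were no probe sets ending in _s_at or _x_at, and the mean of all probe sets of a gene, those below the brightness minimum included.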

Additional observations from a re-analysis of the deposited data

How the results depend on the processing

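The median log2 change of the 44 genes stayed below 0 under all 15 alternatives, from -0.24 to -0.15, as did those of the base (-0.42 to -0.31), lid, alpha and beta classes. The count called lower was 11 under the 3 scalings and without a brightness minimum, 14 or 15 under the stricter minimum, constant 64, the mean of probe sets, the intensity trend and the replicate block, 9 of 33 without _s_at and _x_at probe sets, 7 with constant 1, and 2 to 12 with an array left out. The count called higher was 0 with constant 1 or no brightness minimum, 2 with median centring or quantile normalization, 3 with cyclic loess, the stricter minimum, the intensity trend or the replicate block, 4 without _s_at and _x_at probe sets, and 0 to 3 with an array left out. With an array left out, 158 to 879 of all genes were called lower and 379 to 1121 higher. The cause was not tested, except that leaving out an array leaves 1 residual degree of freedom, with the lone array assumed to vary like the other pair.

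Class medians moved beyond the spread between arrays in these cases: the mean of probe sets gave -0.27 for the lid, -0.0347 for assembly and -0.069 for the other activators. Without _s_at and _x_at probe sets assembly had 0.10 and the other activators 0.020. With an array left out, the medians of alpha, lid, other activators and immune genes moved beyond that spread in some fits, those of beta and assembly in none. The ranges were -0.27 to -0.10 for alpha, -0.23 to -0.10 for beta and -0.50 to -0.33 for the lid. They were -0.19 to -0.08 for assembly, -0.17 to -0.068 for the other activators and -0.051 to 0.21 for the immune genes. Of 649 single results of the 44 genes 548 kept direction and side of the threshold, 40 passed it only in the alternative, 35 only as reported, and 26, from 12 genes not called in the report, turned in sign. Turned without _s_at and _x_at probe sets were PSMA2 (-0.42, adjusted p = 0.0204), PSMG4 (0.45, 0.0496), POMP (0.35, 0.138) and the list gene UCHL5 (0.034, 0.861). With the mean of probe sets these were PSMA5 (0.22), PSMA2 (-0.21), PSMB4 (-0.027), PSMG4 (0.045) and POMP (0.16). PSME1 turned with quantile normalization (0.017) and cyclic loess (0.033), and POMP with the last (0.018). With an array left out, these ranges crossed 0: PSMA2 -0.064 to 0.070, PSMB5 -0.21 to 0.017, PSMB4 -0.032 to 0.083, PSME1 -0.080 to 0.076, PSMB10 -0.11 to 0.17, PSMB8 -0.022 to 0.25, PSMD4 -0.011 to 0.14, PSMD12 -0.15 to 0.0045, POMP -0.076 to 0.031 and PSME4 -0.014 to 0.16.

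The replicate block is no pairing by the labels. Deviations of same-numbered arrays correlated at r = 0.24 over all genes tested and 0.07 over the 44, where genes are not independent. That r is taken about the mean over genes, so it cannot show a shift that the genes share. Array 2 read higher than array 1 for 35 of the 44 in the knockdown-labelled pair and 37 in the control pair. With the replicate block, 15 of the 44 were lower and 3 higher.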
